A study of Homo sapiens with 12 samples.

Results

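The 10 genes described here are the NOTCH receptors NOTCH1, NOTCH2 and NOTCH3, the ligands JAG1, JAG2, DLL1 and DLL3, and the targets HES1, HEY1 and NRARP. They were taken by symbol from a table of 49651 genes with counts, and all 10 were found in it. The study's question was what ABL kinases do in medulloblastoma, a tumour of the cerebellum. It compared D283 cells, an established medulloblastoma line with amplified MYC, in which the tyrosine kinase genes ABL1 and ABL2 were inactivated, with D283 cells given a scrambled control. Each group has 3 libraries of messenger RNA, sequenced on 2 lanes each, with 33505903 to 49034159 counts per library. The means of inactivation, the number of clones and whether libraries came from separate cultures are not stated in the labels, so the p-values reflect no more than how these libraries vary, which may be technical.

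NOTCH receptors are read out by direct contact between cells. A JAG or DLL ligand on one cell binds a receptor on its neighbour, proteases of the ADAM family and gamma-secretase cut the receptor, and the freed intracellular part enters the nucleus. There it joins the DNA-binding protein RBPJ and a Mastermind protein (MAML) and switches on target genes such as the HES and HEY repressors. In the developing nervous system this holds progenitors back from differentiation, because HES proteins repress proneural genes. Transcripts of the targeted genes were reduced, not absent, in the inactivated libraries: ABL1 fell by 59.6% and ABL2 fell by 24.6%. Groups did not overlap for either gene, where 63.2% of all tested genes had groups that did not overlap. Against the null of a 1.5-fold change used below, ABL1 passed and ABL2 did not.

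The line's markers were checked first. All 7 medulloblastoma markers listed (OTX2, MYC, NPR3, IMPG2, GABRA5, EYS and CRX) were expressed well enough to be tested, with a summed level of 2363 to 2391 CPM (counts scaled to a common library size of 1e6 by TMM, the trimmed mean of M values) in control libraries and 2664 to 2763 CPM in inactivated ones. By the test described below, 6 of the 7 rose, where 29.6% of all tested genes did, and OTX2 fell by 19.8%. The largest rises were those of EYS (4.8-fold), IMPG2 (4.73-fold) and CRX (1.86-fold), so the levels of these markers were not stable between the groups. The rise of MYC had overlapping groups and was lost without control replicate 1 (edgeR adjusted p = 0.0905), control replicate 2 (0.102), inactivated replicate 1 (0.0831) or inactivated replicate 3 (0.136). Of 6 markers of other cell types, PTPRC (immune), PECAM1 (endothelial), GFAP (astrocyte), MBP (oligodendrocyte) and EPCAM (epithelial) had at most 4 counts in any library. COL1A1, a fibroblast collagen gene, rose from 8.11 ± 0.583 to 15.1 ± 1.04 CPM (mean ± SD, n = 3, as for all levels below; a log2 fold change has its SE), and its part in the results below was not tested. The summed level of the 6 was 7.63 to 8.67 CPM in control and 14 to 15.9 CPM in inactivated libraries.

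RBPJ recognises DNA with the core letters TGGGAA, and HES repressors bind sites with the letters CACNAG. Promoter sequences from RefSeq (GRCh38.p14) were at hand for 7 of the 10 members, without DLL1, DLL3 and HEY1, and the 250 bases before the transcription start were searched on both strands. HES1 held 2 matches to TGGGAA, 84 and 70 bases before its start, and 3 matches to CACNAG. NOTCH3 held 1 match to CACNAG, and no other member held a match to TGGGAA or CACNAG. HEYL, a HES-related repressor outside the 10 genes, also held 2 matches to TGGGAA, 178 and 99 bases before its start. No match of one motif overlapped a match of the other. Of 35116 promoter windows of that length, 20.8% held at least 1 TGGGAA match and 2.9% held at least 2. At least 1 CACNAG match, as in NOTCH3, was held by 32% of them, and at least 3 by 0.911%. The windows of HES1, HEYL and NRARP are shown because these 3 target genes changed most among those described, HES1 downward and the other two upward. The HES1 window lies at chr3:194135898-194136147 on the forward strand, HEYL at chr1:39639644-39639893 and NRARP at chr9:137302272-137302521, both on the reverse strand. Capitals mark TGGGAA on either strand, read 5′ to 3′ along the gene.
HES1: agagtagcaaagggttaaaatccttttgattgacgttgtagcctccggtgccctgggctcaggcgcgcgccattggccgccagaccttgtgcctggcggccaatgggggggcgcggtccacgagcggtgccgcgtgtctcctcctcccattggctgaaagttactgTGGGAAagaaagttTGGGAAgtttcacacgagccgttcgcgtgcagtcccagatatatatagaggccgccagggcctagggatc
HEYL: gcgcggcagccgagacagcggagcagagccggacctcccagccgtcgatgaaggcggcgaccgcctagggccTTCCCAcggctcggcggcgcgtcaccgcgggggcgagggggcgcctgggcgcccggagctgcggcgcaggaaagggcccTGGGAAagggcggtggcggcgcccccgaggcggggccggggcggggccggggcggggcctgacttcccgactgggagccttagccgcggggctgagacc
NRARP: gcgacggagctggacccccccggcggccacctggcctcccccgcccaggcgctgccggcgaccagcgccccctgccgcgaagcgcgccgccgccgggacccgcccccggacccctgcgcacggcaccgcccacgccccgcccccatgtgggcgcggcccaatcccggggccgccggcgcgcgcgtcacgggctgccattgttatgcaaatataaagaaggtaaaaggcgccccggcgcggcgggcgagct
A match describes letters only. Binding was not measured, and a window without a match says nothing about RBPJ elsewhere in the gene.

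Each role held genes that rose and genes that fell. By edgeR's quasi-likelihood test over all genes, adjusted by Benjamini-Hochberg with a threshold of 0.05, 3 of the 9 tested members rose (NOTCH3, JAG2 and NRARP), 4 fell (NOTCH1, JAG1, HES1 and HEY1) and 2 did not pass (NOTCH2 and DLL3), and DLL1 had no count. In bulk RNA, fewer cells that express a gene and less of its RNA per cell cannot be told apart. Among all 14704 genes tested 59.3% were called, 29.6% higher and 29.7% lower, so most genes were called in this comparison. The median log2 fold change of the tested members was 0.03, against 0.003 over all tested genes. Groups did not overlap for 8 of the 9, where 63.2% of all tested genes had groups that did not overlap. Against a null of a 1.5-fold change, which 15.5% of tested genes passed, JAG2 and NRARP remained among the higher genes (7.67% of all tested) and HES1 among the lower (7.83%). DESeq2 called 6 of the 9 members, where it called 40.9% of the genes it tested, with 3 higher (20.2% of all) and 3 lower (20.7%).

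**Figure D1:**
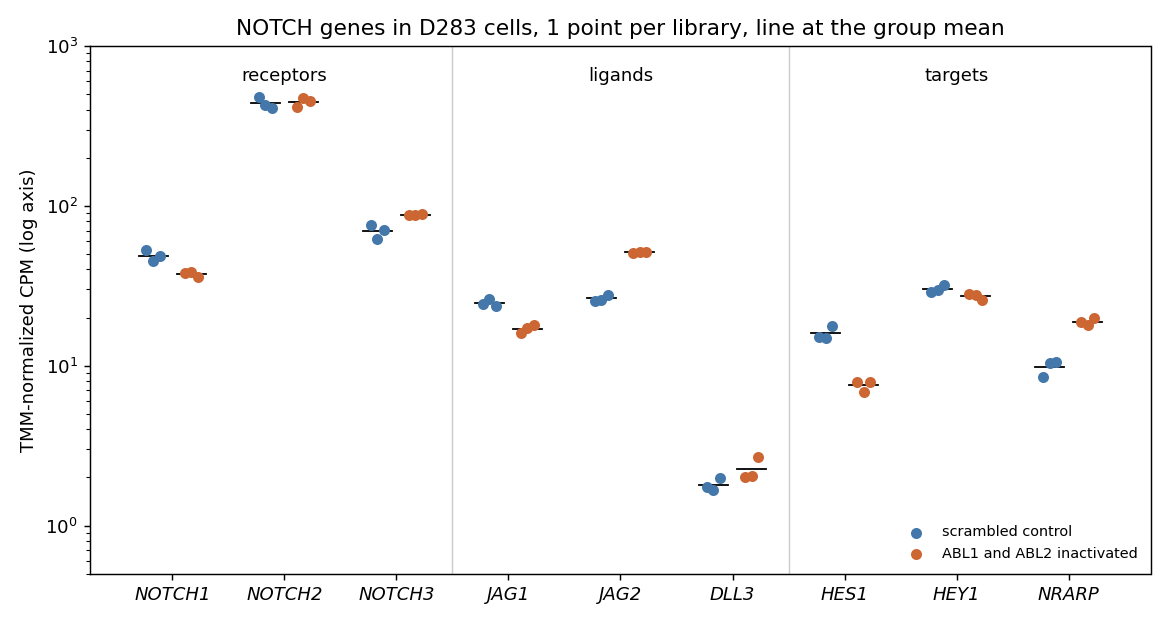
Level of each tested member in every library (TMM-normalized CPM, log axis), blue for scrambled control and orange for inactivated cells, with a line at the mean of 3 libraries. Levels are not divided by length, so points are compared within a gene, and JAG2, NRARP and HES1 show the widest gaps between the groups.

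Among the receptors NOTCH2 had the highest level per exon length and did not pass the test, while NOTCH1 fell and NOTCH3 rose. NOTCH2, which spans bases 119911553 to 120069662 of chromosome 1, reverse strand (GRCh38.p14, as are all positions here), had 479.8, 428 and 408 CPM across control libraries against 416, 472 and 452 CPM after inactivation. The groups overlapped. Its log2 fold change (inactivated over control) was 0.03 ± 0.057 (SE) with a 95% interval of -0.09 to 0.15 (edgeR adjusted p = 0.71), from 45466 and 54107 counts per group. The human-specific NOTCH2NL genes are partial copies of NOTCH2, and reads from the shared exons cannot be assigned with certainty. NOTCH2NLC had 6.25 ± 0.428 and 6.47 ± 1.37 CPM, and NOTCH2NLA rose from 10 counts in the control group to 72 in the inactivated group (edgeR adjusted p = 0.000501), levels far below that of NOTCH2.

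NOTCH1, the receptor best known from T-cell leukaemia, spans bases 136494433 to 136546048 of chromosome 9, reverse strand. Control libraries had 52.6, 45.1 and 48.2 CPM and inactivated libraries 38.1, 38.4 and 35.8 CPM. Every inactivated library was lower than every control library. The mean went from 48.7 ± 3.79 to 37.4 ± 1.39 CPM, a log2 fold change of -0.38 ± 0.057 (95% interval -0.50 to -0.26, edgeR adjusted p = 1.3e-05).

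NOTCH3, a receptor gene that NOTCH signalling itself can induce, spans bases 15159038 to 15200995 of chromosome 19, reverse strand. It had 75.9, 62.2 and 70.3 CPM in control and 87.8, 86.98 and 88.3 CPM in inactivated libraries. Here all inactivated libraries were higher, and they lay closer together than the controls. The mean rose from 69.5 ± 6.92 to 87.7 ± 0.653 CPM (log2 fold change 0.34 ± 0.056, 95% interval 0.22 to 0.45, edgeR adjusted p = 4.5e-05). NOTCH4, the fourth receptor gene, had no count in any library.

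Of the ligands JAG2 rose and JAG1 fell. JAG2, which spans bases 105140995 to 105168776 of chromosome 14, reverse strand, had 25.5, 25.7 and 27.8 CPM across control libraries against 50.9, 51.1 and 51.7 CPM after inactivation. Its inactivated libraries all stood near 51 CPM, with no control library above 28 CPM. The rise from 26.3 ± 1.31 to 51.2 ± 0.428 CPM was 1.94-fold (log2 fold change 0.96 ± 0.051, 95% interval 0.85 to 1.07, edgeR adjusted p = 8.2e-12).

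JAG1, the ligand gene mutated in Alagille syndrome, spans bases 10637684 to 10673999 of chromosome 20, reverse strand. It had 24.3, 26.2 and 23.8 CPM in control and 16.0, 17.1 and 18.1 CPM in inactivated libraries. The groups did not overlap, and the mean fell by 31.1% in the inactivated cells (log2 fold change -0.54 ± 0.065, 95% interval -0.67 to -0.40, edgeR adjusted p = 7.7e-07).

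DLL3, a divergent ligand that acts inside the cell and does not activate receptors on neighbouring cells, spans bases 39498947 to 39508469 of chromosome 19, forward strand. Its levels were low, with 1.74, 1.67 and 1.99 CPM in control and 2.02, 2.04 and 2.69 CPM in inactivated libraries. The inactivated libraries were all slightly higher, yet the gene did not pass the test with 186 and 267 counts per group (log2 fold change 0.31 ± 0.17, 95% interval -0.04 to 0.67, edgeR adjusted p = 0.122).

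DLL1, the ligand that many neural progenitors present, had 0 counts in every library, which allows up to 3 counts or 0.0612 to 0.0895 CPM per library. This value is not read as absence of the transcript. The table lists a second copy of DLL1 on an alternate locus, also with 0 counts, and the labels do not state what was done with reads that align to several places. Of 1584 protein-coding genes with such a copy 862 (54.4%) had no count in any library, against 2699 of 17951 (15%) without one. DLL1 exons also share 370 bases with FAM120B on the other strand, which had 6 and 22 counts per group. The part of any of these in the 0 was not tested.

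The targets diverged most. HES1, the repressor that NOTCH induces in progenitors and that represses its own gene, spans bases 194136148 to 194138732 of chromosome 3, forward strand. It had 15.2, 14.9 and 17.8 CPM across control libraries against 7.93, 6.85 and 7.95 CPM after inactivation. No inactivated library reached 8 CPM, while the lowest control library stood near 15 CPM. The mean fell from 15.98 ± 1.61 to 7.58 ± 0.627 CPM, which means that it fell by 52.8% (log2 fold change -1.08 ± 0.088, 95% interval -1.27 to -0.90, edgeR adjusted p = 3.2e-09). This is the gene shown above with the pair of TGGGAA matches.

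NRARP, an ankyrin repeat protein induced by NOTCH that limits the signal in return, spans bases 137299631 to 137302271 of chromosome 9, reverse strand. Its control libraries had 8.55, 10.4 and 10.6 CPM, and its inactivated libraries had 18.7, 17.9 and 19.9 CPM. All inactivated libraries were higher than any control. The mean rose 1.91-fold, from 9.85 ± 1.13 to 18.8 ± 0.983 CPM (log2 fold change 0.93 ± 0.081, 95% interval 0.76 to 1.10, edgeR adjusted p = 8.6e-09), and its promoter window held no TGGGAA match.

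HEY1, a repressor related to HES1, spans bases 79764010 to 79767767 of chromosome 8, reverse strand. It had 28.98, 29.6 and 32.0 CPM in control and 28.2, 27.8 and 25.8 CPM in inactivated libraries. The gap between the groups was under 1 CPM at its narrowest. The gene fell by 9.55% in the test (log2 fold change -0.14 ± 0.058, 95% interval -0.27 to -0.02, edgeR adjusted p = 0.0387). That call was lost with DESeq2 (adjusted p = 0.0936), with scaling to library totals (0.0856), in lane 2 alone (0.445), and without control replicate 2 (0.0576), control replicate 3 (0.163) or inactivated replicate 3 (0.176). Apart from the 1.5-fold null, the adjusted p over the settings tried ranged from 0.0163 to 0.445.

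Levels were compared between genes after division by the deposited exon length. Which transcripts of a gene the cells used was not measured, so this order and the shares that follow are approximate. In control cells NOTCH2 led the members with 37.2 ± 3.14 CPM per kilobase, above 89.5% of all tested genes. HEY1 followed with 12.2 ± 0.633, HES1 with 10.1 ± 1.02 and NOTCH3 with 8.005 ± 0.797 CPM per kilobase. Next came NOTCH1 with 5.09 ± 0.396, then JAG2 with 4.29 ± 0.214 and JAG1 with 4.17 ± 0.213 CPM per kilobase, which did not differ beyond their spread, and NRARP with 3.73 ± 0.426 CPM per kilobase. DLL3 was lowest at 0.769 ± 0.0707 CPM per kilobase. In inactivated cells NOTCH2 (37.9 ± 2.4) and HEY1 (10.99 ± 0.505) still led and the order below them changed. NOTCH3 stood at 10.1 ± 0.0752, JAG2 at 8.34 ± 0.0697 and NRARP at 7.13 ± 0.372 CPM per kilobase. HES1, at 4.81 ± 0.398 CPM per kilobase, was now below all of these. NOTCH1 stood at 3.91 ± 0.146 and JAG1 at 2.87 ± 0.177 CPM per kilobase, so that the ligand genes no longer lay side by side.

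Shares within a library do not depend on how libraries are scaled. Of the summed receptor level per kilobase, NOTCH2 held 73.97% ± 1.43 in control and 72.97% ± 1.33 in inactivated cells, with overlapping groups. NOTCH1 went from 10.1% ± 0.397 to 7.54% ± 0.456 and NOTCH3 from 15.9% ± 1.04 to 19.5% ± 0.971, without overlap. The ligands turned from near parity to a lead of JAG2. JAG2 held 46.2%, 44.95% and 48.3% of the summed level of JAG1, JAG2 and DLL3 in control libraries and 69.96%, 68.9% and 66.8% in inactivated ones, while JAG1 went from 45.2% ± 2.39 to 23.6% ± 0.747. The ratio of JAG2 to JAG1 per kilobase was 1.03 ± 0.0934 in control and 2.91 ± 0.158 in inactivated libraries.

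Among HES1, HEY1 and NRARP, the share of HES1 went from 38.9% ± 1.44 to 20.96% ± 1.31 and that of NRARP from 14.3% ± 1.19 to 31.1% ± 1.42. HEY1 held 46.8% ± 0.974 and 47.9% ± 2.46, a difference of 1.16 percentage points that turned to -3.14 without division by exon length. A ratio of NRARP to HES1 per kilobase of 0.369 ± 0.0425 in control libraries became 1.49 ± 0.0754 in inactivated ones. Of the 9 shares tested by a two-sided exact permutation test over libraries, 6 gave p = 0.10 (0.15 adjusted over the 9), the smallest that 3 against 3 libraries can give, so this design cannot pass 0.05. The shares of NOTCH2, DLL3 and HEY1 gave exact p of 0.40, 0.60 and 0.50.

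**Figure D2:**
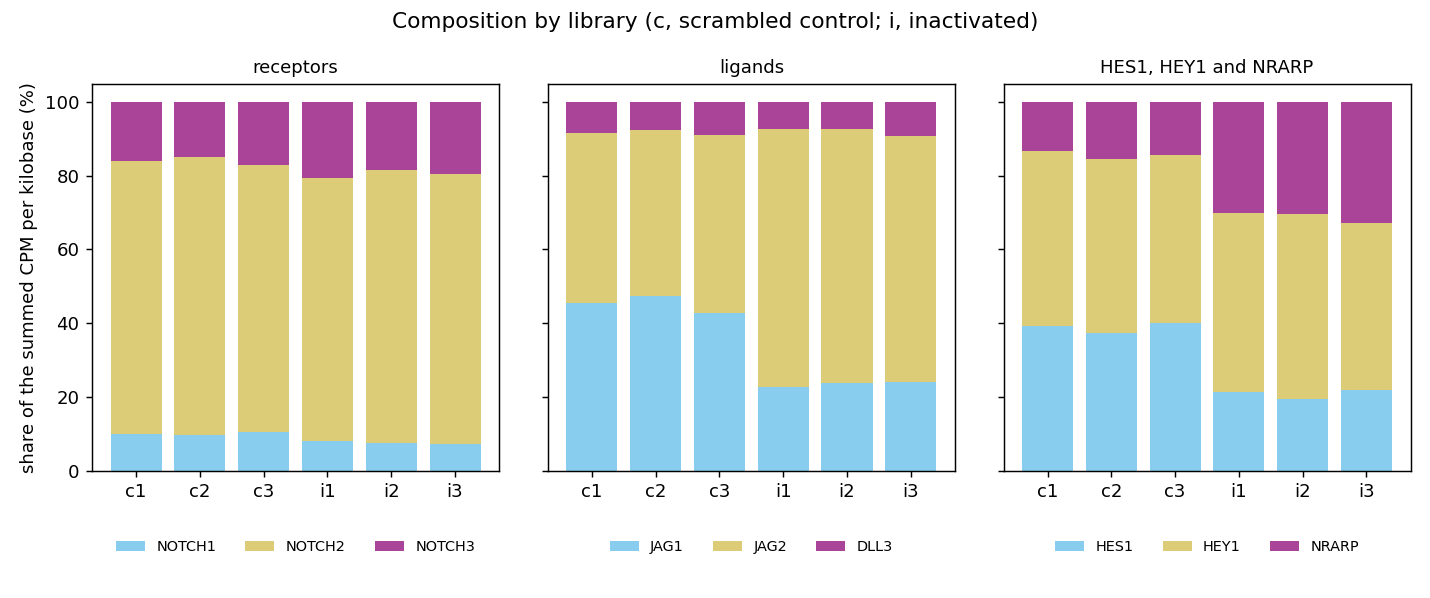
Share of each member in the summed CPM per kilobase of its role, 1 bar per library (c1 to c3 scrambled control, i1 to i3 inactivated). JAG2 takes 66.8% to 69.96% of the ligand level in inactivated libraries against 44.95% to 48.3% in controls, and NRARP is larger than HES1 in every inactivated library and smaller in every control.

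Each member was also set beside the tested genes that start within 5 megabases of it, since genes of a chromosome stretch can shift together. Around DLL1, 14 of 15 such genes rose and 1 fell, where 29.6% of all tested genes rose and 29.7% fell. Their median log2 fold change was 0.73, but DLL1 gave no value of its own. The neighbours of HES1 (51 genes), JAG2 (59) and NRARP (79) had median log2 fold changes of -0.05, -0.10 and -0.11. HES1 lay 1.04 below, and JAG2 1.06 and NRARP 1.04 above, these medians. NOTCH1 and NRARP lie 0.805 megabases apart on chromosome 9 and went opposite ways. NOTCH3 lay 0.36 above the median of its 216 neighbours.

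For JAG1, with a log2 fold change of -0.54, the place among its neighbours depended on the window. It lay between the quartiles of the 21 genes within 5 megabases (-0.64 to 0.11, median -0.15) and above the median of -0.73 of the 7 within 2 megabases. Within 10 megabases it lay below the quartiles of 97 genes (-0.29 to 0.17, median -0.05). HEY1, with a log2 fold change of -0.14, lay above the median of its neighbours at each window, which was -0.40 over 20 genes within 5 megabases, -0.28 over 12 within 2 and -0.18 over 54 within 10.

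**Figure D3:**
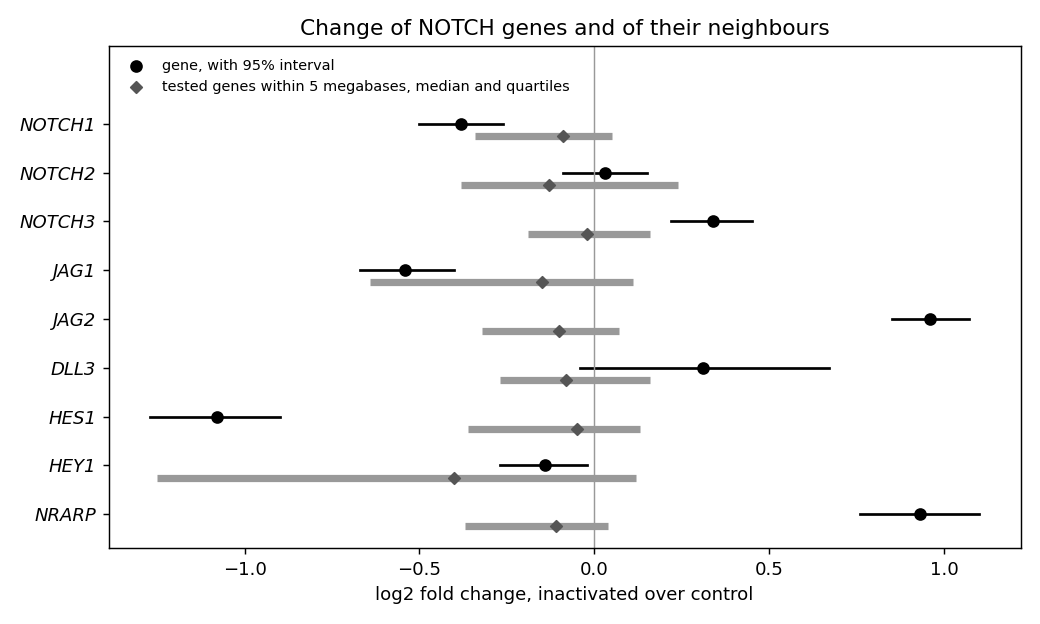
Log2 fold change (inactivated over control) of each tested member with its 95% interval (black), and the median and quartiles of the tested genes within 5 megabases (grey). JAG2, NRARP and HES1 lie outside the quartiles of their neighbours, and so do NOTCH1, NOTCH3 and DLL3. Quartiles also leave out part of the neighbours themselves. JAG1, HEY1 and NOTCH2 lie inside them at this window. Within 10 megabases JAG1 lies below the lower quartile of -0.29.

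The rest of the pathway was read from a list of 65 further genes, of which 47 could be tested. In this list 14 genes rose, 20 fell and 13 missed the threshold, and the median log2 fold change was -0.12. The role counts below are read against the shares of all tested genes, 59.3% called, 29.6% higher and 29.7% lower, and none is called particular to its role. Enzymes that add sugars to the receptors, together with the protease FURIN, were mostly lower: of 8 tested 5 fell, 1 rose and 2 did not pass (median -0.40). POGLUT2, an O-glucosyltransferase of EGF repeats, fell from 35.5 ± 2.09 to 11.5 ± 0.341 CPM (log2 fold change -1.63 ± 0.063), and EOGT, which adds O-linked GlcNAc, from 52.1 ± 1.33 to 29.9 ± 1.45 CPM. POGLUT3 fell from 128 ± 5.31 to 86.9 ± 3.67 CPM and POFUT1, the O-fucosyltransferase needed for ligand binding, from 118 ± 1.79 to 93.2 ± 1.26 CPM. The Fringe enzymes, named after their values were seen, extend O-fucose and so tune the response to JAG and DLL ligands. Of these, RFNG rose from 8.87 ± 0.466 to 11.1 ± 0.313 CPM. LFNG, with 63 and 88 counts per group, had overlapping groups and did not pass (edgeR adjusted p = 0.425). MFNG, with 0 and 3 counts per group, was too low to test.

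Of 8 genes of the cleavage machinery 3 rose, 3 fell and 2 did not pass (median 0.00). One of the 3 that rose, the gamma-secretase subunit PSENEN, had overlapping groups and lost its call in 7 settings besides the 1.5-fold null, among them DESeq2 (adjusted p = 0.0811), limma-voom (0.0528) and leaving out any of 4 libraries (0.123 to 0.155 without control replicate 1 or 2 or inactivated replicate 1 or 3). ADAM10, the protease of ligand-driven cleavage, fell from 170.3 ± 2.91 to 140.5 ± 5.103 CPM. Among gamma-secretase subunits APH1A fell from 217 ± 2.72 to 173 ± 8.48 CPM. Its paralog APH1B fell from 1.16 ± 0.261 to 0.3996 ± 0.0699 CPM, with only 121 and 48 counts per group. PSEN2, a catalytic presenilin named after its values were seen, rose from 22.2 ± 1.32 to 30.7 ± 0.659 CPM.

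For ligand endocytosis, which pulls the receptor open, 1 of 3 tested genes fell and 2 did not pass. MIB1, the main ubiquitin ligase of ligands, had 171.5 ± 8.13 and 167 ± 11.7 CPM and did not pass (log2 fold change -0.03 ± 0.051). MIB2 had 12.8 ± 1.25 and 11.4 ± 0.66 CPM and did not pass either. NEURL1B fell from 0.826 ± 0.223 to 0.405 ± 0.0206 CPM, a call that was lost without control replicate 3 (edgeR adjusted p = 0.0517).

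Of 7 tested genes of receptor turnover 5 fell and 2 rose, where 59.3% of all tested genes were called. Of these calls 3 were lost in settings besides the 1.5-fold null. Under that null, which 15.5% of all tested genes passed, only DTX3L kept its call. DTX2 and NUMBL, like PSENEN above, are named after their values were seen. DTX2 lost its call with DESeq2 (adjusted p = 0.107), in lane 1 (0.0851) or lane 2 alone (0.103) and without control replicate 3 (0.0886). NUMBL lost it in lane 1 alone (0.161) and without control replicate 1 (0.0975) or inactivated replicate 3 (0.0562). DTX3L, a Deltex family ubiquitin ligase known from DNA repair and interferon responses, fell from 7.37 ± 0.247 to 1.71 ± 0.0853 CPM, and DTX3 from 24.4 ± 0.589 to 16.1 ± 0.0739 CPM. The endocytic NOTCH inhibitor NUMB rose from 38.7 ± 1.59 to 43.4 ± 0.2402 CPM. ITCH, a ubiquitin ligase of NOTCH, rose from 115.9 ± 3.03 to 124.7 ± 4.45 CPM, the third such call, lost in 7 settings besides the 1.5-fold null.

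In the nucleus RBPJ, the DNA-binding partner of every NOTCH receptor, rose from 228 ± 10.01 to 266 ± 8.89 CPM (log2 fold change 0.22 ± 0.044, edgeR adjusted p = 0.000323). Of the 5 nuclear activators tested 1 rose, 2 fell and 2 did not pass; the acetyltransferase EP300 had 234 ± 8.19 and 223 ± 9.8 CPM and did not pass. Among 8 nuclear repressors 4 rose, 2 fell and 2 did not pass. SPEN, a scaffold of the RBPJ repressor complex, rose from 182 ± 9.91 to 211 ± 18.7 CPM.

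Only 3 of 8 further HES and HEY genes had enough counts. HEYL rose from 1.32 ± 0.193 to 2.62 ± 0.296 CPM (log2 fold change 0.98 ± 0.17, edgeR adjusted p = 6.8e-05), with 1.29, 1.53 and 1.14 CPM in control and 2.38, 2.54 and 2.95 CPM in inactivated libraries. HEYL and HES1, the genes with 2 TGGGAA matches shown above, thus went in opposite directions. HES6, which opposes HES1 and is not induced by NOTCH, had 107 ± 4.02 and 116 ± 6.59 CPM and did not pass (edgeR adjusted p = 0.0536). It did pass as higher with another scaling (RLE, edgeR adjusted p = 0.0475) and with scaling to library totals (0.0219). The same held in lane 1 alone (0.0171) and without inactivated replicate 2 (0.00216). HEY2 had 0.329 ± 0.028 and 0.217 ± 0.115 CPM and did not pass.

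Proneural genes, which HES repressors hold down, went both ways. NEUROG1 rose from 41.6 ± 1.78 to 53.98 ± 4.23 CPM and NEUROD1 fell from 28.5 ± 1.51 to 17.8 ± 1.06 CPM.

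Ligand-like genes outside the JAG and DLL families gave the lowest and the highest fold change of the list, at low levels. DNER, a neuronal EGF-repeat protein described as a NOTCH ligand, had 3.86, 3.86 and 3.64 CPM in control and 0.246, 0.101 and 0.175 CPM in inactivated libraries. Its 392 control counts stood against 20 in the inactivated group (log2 fold change -4.48 ± 0.24, edgeR adjusted p = 8.5e-12). DLK2, a homologue of the NOTCH antagonist DLK1, rose from 30 to 143 counts (log2 fold change 2.02 ± 0.3, edgeR adjusted p = 1.0e-05). DLK1 had 0 counts in every library, and DLL4, with 14 and 18 counts per group, was too low to test.

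**Figure D4:**
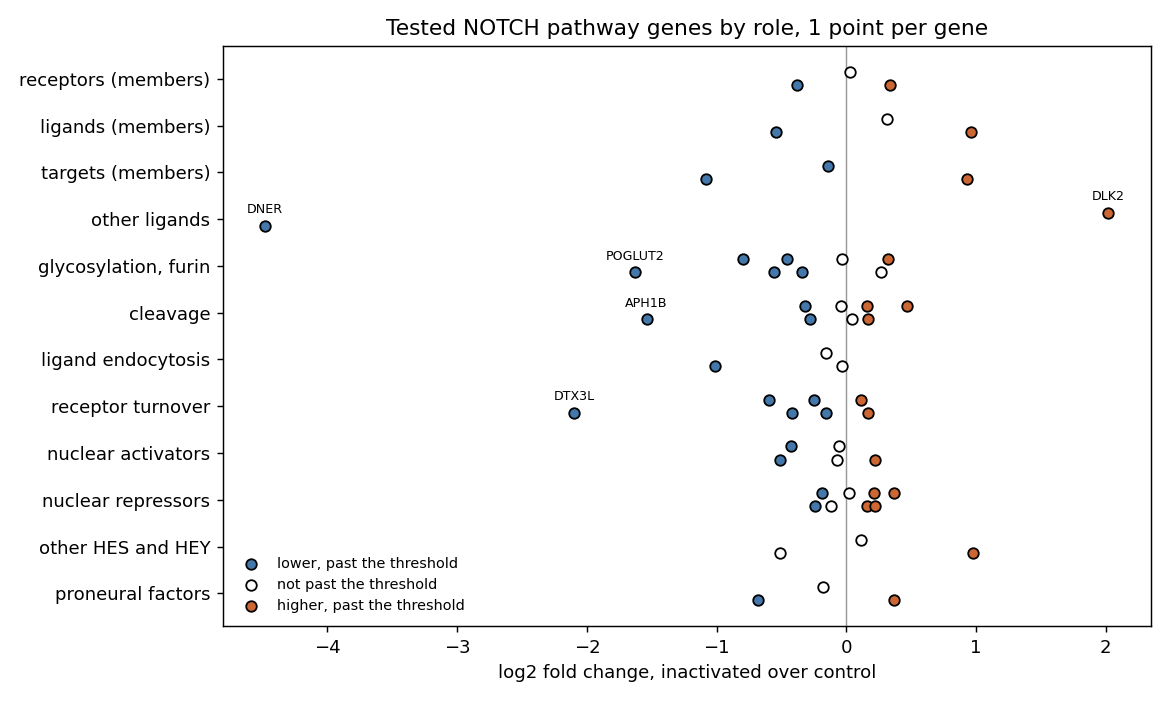
Log2 fold change (inactivated over control) of every tested NOTCH pathway gene, 1 point per gene in rows by role, orange for higher and blue for lower past the threshold and white for not past it. Points lie on both sides of 0 in most rows, with DNER lowest at -4.48 and DLK2 highest at 2.02.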

How the data were processed

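The authors deposited raw counts per gene and lane, with exon length as another column, made with STAR 2.7.2b and featureCounts 1.6.3 on GRCh38.p14, per the submitters' processing notes. The labels state neither a strand setting nor the treatment of reads with several alignments. The 2 lanes of each library were summed. Genes were kept by filterByExpr (minimum count 10, minimum total 15), scaled by TMM and tested with edgeR 4.0.16 (quasi-likelihood F test, Benjamini-Hochberg over 14704 genes, threshold 0.05). Standard errors and 95% intervals come from that fit. Shares and ratios used exact permutation tests. Depth gives a floor of 3 counts, 0.0612 to 0.0895 CPM, for counting error only. In simulated data 200 genes were changed, 100 by 1.5-fold and 100 by 2-fold, and 14497 genes were tested. The test recovered 70% of 1.5-fold and 85.7% of 2-fold changes among genes that passed the filter, and 6.1% of its 164 calls were false. A far larger part of the genes, 59.3%, was called in the real comparison, so these shares need not hold there. The members and lists were chosen with earlier results of these data known. Named were all members, ABL1 and ABL2, per role every gene changed at least 1.5-fold and past the threshold, and up to 2 others by level; a few of these are not reported here. Alternatives were DESeq2 1.42.0, limma-voom 3.58.1, other scaling, no filter, single lanes, a 1.5-fold null and leaving out each library.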

Additional observations from a re-analysis of the deposited data

How the results depend on the processing

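The members called numbered 6 or 7 in every setting tried except the 1.5-fold null, where 3 of them and 2280 genes in all passed (8726 in the reported test, 7468 to 9328 in the other settings). Leaving out 1 library gave 7923 to 8725 genes and 6 to 7 members. Of 126 member fold changes under other settings, 114 kept direction and side of the threshold, 10 lost the call and 2 turned: NOTCH2 to -0.03 without control replicate 3 and to -0.01 without inactivated replicate 2 (range -0.03 to 0.11 with 1 library left out). Of 781 for the other genes reported or counted, 707 kept both and 57 lost the call. A call was gained in 10, which belong to HES6, MIB2, RITA1 and EP300. Another 7 turned, all of genes not past the threshold. Those were FURIN (0.01 without control replicate 1 and 0.01 without inactivated replicate 2), MIB1 (0.01 without control replicate 1, 0.02 without inactivated replicate 1, lowest -0.09), CIR1 (-0.05 and -0.004 without the same libraries, highest 0.07) and NOTCH2NLC (-0.13 without inactivated replicate 2, highest 0.18). The HEY1 share turned from 1.16 to -3.14 percentage points without division by exon length. No paired analysis was possible because the groups share no library numbers in the labels. The causes were not tested. Low counts limit DLL3, DLK2, DNER, APH1B, LFNG, HEYL, NEURL1B, HEY2 and NOTCH2NLA.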

Other observations

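Other genes of the pathway list also have copies on alternate loci. MAML1, a Mastermind coactivator, had 5 counts over all libraries at its chromosome locus and 520 at its alternate copy, while DTX2 had 518 at its locus and 0 at the copy. NOTCH4, with 6 alternate copies, and HES5 had 0 counts at the locus and at the copies, so their level in these cells is not given here. HES4 and HES7 each had 2 counts summed over control and 10 over inactivated libraries, too few to test.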
